A study of Mus musculus with 2 samples.

Results

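Fibroblast growth factors (FGFs) and their receptors were described in cells of the mouse mesentery. The set holds 9 of the 27998 genes in the matrix, chosen by gene symbol: the ligands Fgf1, Fgf2, Fgf7, Fgf9, Fgf10 and Fgf18 and the receptors Fgfr1, Fgfr2 and Fgfr3. Whole mesentery was taken from 2 untreated male wild-type C57BL/6N mice, an inbred strain, and digested with Liberase DH, a collagenase blend. Single cells were captured with version 2 of the Chromium 3′ chemistry, which counts transcripts as unique molecular identifiers (UMIs). Each mouse gave 1 library, and both form a single group, so cell classes were compared within mice and no condition was compared. An age is not stated in the labels used here, and the digest was not sorted, so the share of a cell type reflects its release as well as its abundance.

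FGFs are secreted or cell-bound signalling proteins that act on neighbouring cells through receptor tyrosine kinases. Most of them need heparan sulfate, a sugar chain carried by syndecans, glypicans and perlecan, to bind a receptor. Receptor activity runs largely through the Ras and MAP kinase pathway, whose output is damped by Sprouty, Spred and dual-specificity phosphatase proteins. Fgf7 and Fgf10 are classical signals from mesenchyme to epithelium through an epithelial form of Fgfr2. Fgf9 is known as a signal from epithelium and mesothelium to mesenchyme, for example in the developing lung. The mesothelium is the flat epithelium that covers the mesentery and the other serous surfaces.

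The deposited matrix held 3204 barcodes, 1517 in library 1 and 1687 in library 2, with 5137671 and 5563521 UMIs in total. No barcode sequence occurred in both libraries. After filters 3100 cells were analysed, and they fell into 18 clusters built without the FGF genes. The mesothelial-like class was a single cluster of 245 cells, 68 in library 1 and 177 in library 2, in which all 10 mesothelial markers rose more than 2-fold over the other cells. Fibroblast-like cells formed clusters 1, 2, 6 and 8, named here by the genes with the largest fold among them: Igfbp5 and Krtdap for cluster 1, Cxcl14 and Ptk6 for cluster 2, Has2 and Fgl2 for cluster 6, and Mfap4 and Myoc for cluster 8. Has2 is a weak label: its log2 fold change in cluster 6 was 2.03, and it was also among the 10 leading genes of cluster 1 over all other cells. Cluster 0 carried all 11 blood endothelial markers, but its leading genes were hemoglobins from 10 barcodes of library 2, so it is called by its number. All 8 adipocyte markers were detected in it too, at a summed 1068 and 2144 CPM in libraries 1 and 2. Of these markers Car3 was among its 10 leading genes, which also held Gpihbp1, Cldn5, Fabp4 and Rbp7. At clustering resolution 2.0 an adipocyte-like cluster of 69 cells was formed. The pericyte- or smooth muscle-like cluster also carried blood endothelial markers, at a summed 7263 and 7073 CPM (UMIs of a gene per 1000000 UMIs) in libraries 1 and 2, beside 3396 and 3478 CPM of its own markers. Levels below are CPM of the UMIs summed over a class in 1 library, and intervals cover counting error only.

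Fgf1, a ligand that binds all FGF receptors, was almost entirely a mesothelial transcript. Of its 1426 UMIs, 1344, or 94.2%, lay in mesothelial-like cells. Its level there was 971 CPM in library 1 and 901 CPM in library 2, or 936 ± 49.3 (SD, n = 2). In fibroblast-like cells it was 17.3 and 21.3 CPM. Every other named class stayed below 10 CPM in each library. Cluster 17, of 23 cells, held 1 Fgf1 UMI and the 30 unnamed cells held 3, so their CPM are imprecise. The libraries of the mesothelial-like class lay far above all other groups. After each cell was thinned to 1000 UMIs, 59.7% of mesothelial-like cells (145 of 243, exact 95% binomial interval 53.2 to 65.9) held an Fgf1 UMI. The same share was 1.87% (18 of 965) in fibroblast-like cells and 0.685% (2 of 292) in T-like cells, a lymphocyte class that serves here as the background. Without thinning the shares were 93.9% of mesothelial-like and 0.643% of T-like cells, at median depths of 5771 to 6750 and 1558 to 1705 UMIs per cell in the libraries. Although kept out of the clustering, Fgf1 ranked among the 10 leading genes of the mesothelial-like cluster, beside Upk3b, Krt19 and Msln.

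Fgf9, a ligand known in mesothelium and epithelium, followed at a lower level. It reached 82.6 and 105 CPM in mesothelial-like cells (93.8 ± 15.9, SD, n = 2), which held 143 of its 176 UMIs. Fibroblast-like cells gave 5.19 and 6.70 CPM. The thinned share of cells with an Fgf9 UMI was 7.41% (18 of 243) in mesothelial-like cells and 0.725% (7 of 965) in fibroblast-like cells. The mesothelial-like libraries thus lay well above every other class for both Fgf1 and Fgf9.

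Fgf18, a ligand known from skeletal and lung mesenchyme, was shared by both stromal classes. It stood at 62.5 and 61.5 CPM in mesothelial-like cells and at 52.5 and 70.1 CPM in fibroblast-like cells, so the libraries of these classes overlapped. Fgf2, a ligand without a classical signal peptide that is stored in the matrix, was lower in mesothelial-like cells, at 17.9 and 25.8 CPM against 40.4 and 61.5 CPM in fibroblast-like cells. Its reads may include those of Nudt6, which overlaps it on the opposite strand and had 69 UMIs, if counting ignored strand. Fgf7, also named keratinocyte growth factor, gave 20.8 and 15.8 CPM in fibroblast-like cells and no UMI in 245 mesothelial-like cells. Over both libraries its level in fibroblast-like cells was at least 8.92-fold higher than the 3 UMIs that a count of 0 allows. Fgf10, a related ligand, had 10 UMIs in all and is described for fibroblast-like clusters only.

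**Figure D1:**
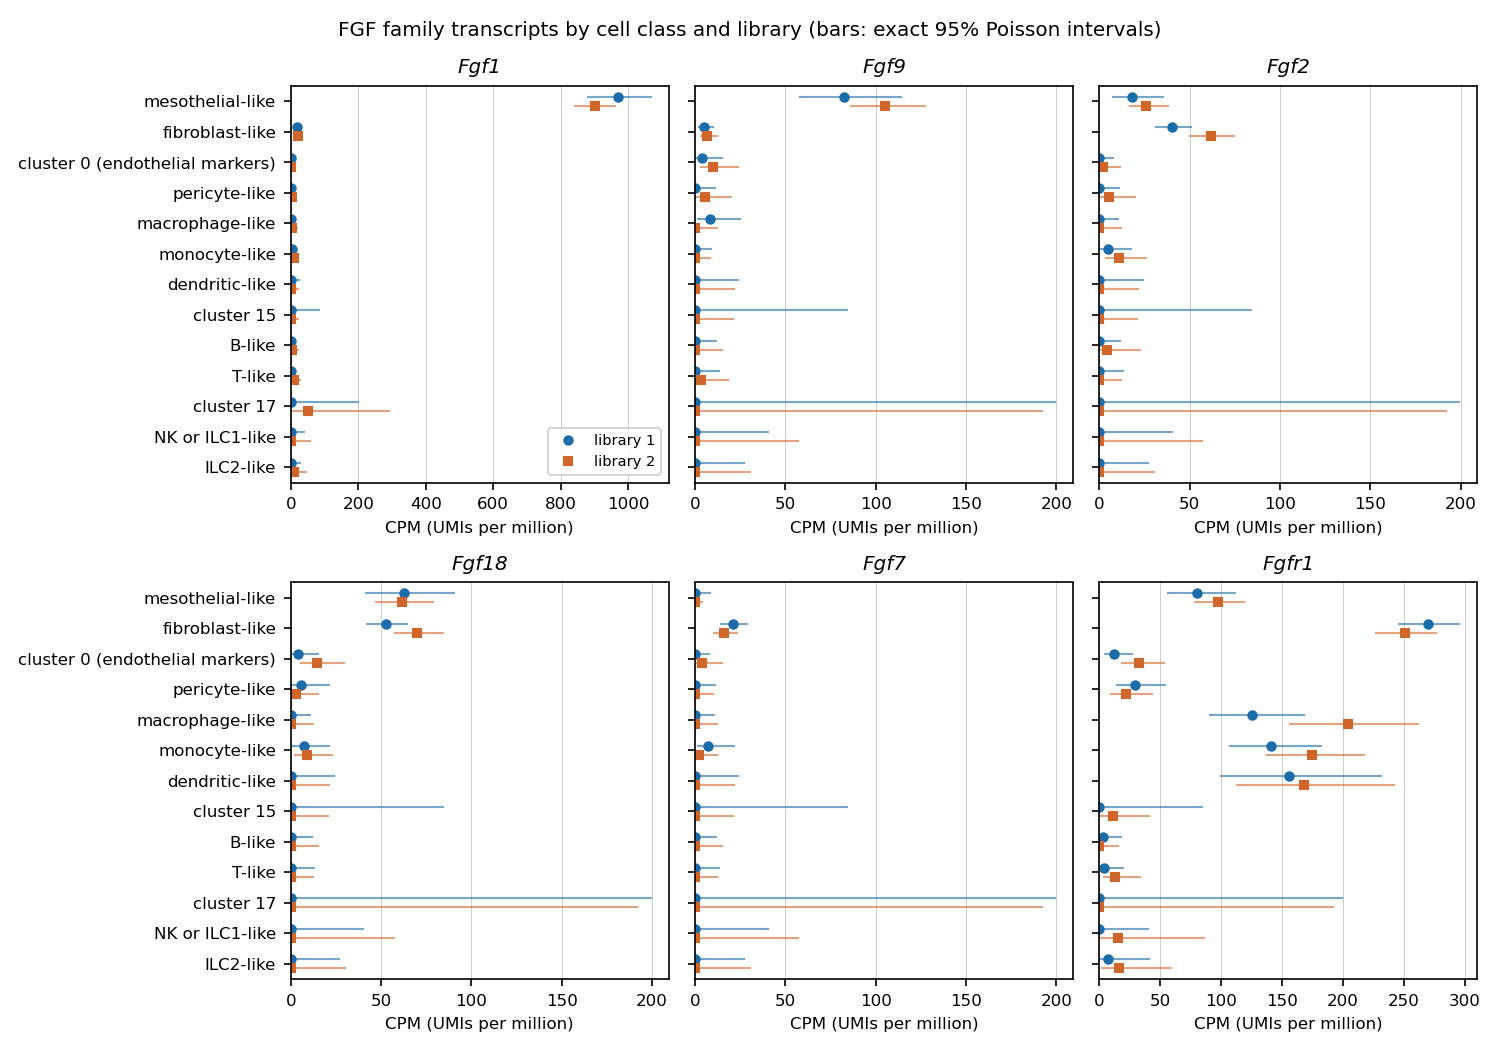
Levels of 6 FGF family genes (CPM, linear axes that differ between panels) in each class, with circles for library 1, squares for library 2 and bars for exact 95% Poisson intervals. Fgf1 and Fgf9 peak in mesothelial-like cells, Fgf2 and Fgf18 lie mainly in mesothelial-like and fibroblast-like cells, and Fgfr1 extends to macrophage-, monocyte- and dendritic-like cells.

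The mesothelial-like class was then tested against the fibroblast-like class with edgeR's quasi-likelihood test on sums per library and class, with library as a block and p-values adjusted over 7703 genes. Of the 9 members, 5 passed the filter on low counts, and 4 of these were called at an adjusted p of 0.05, against 32.7% of all genes tested. The other genes tested could shape the clusters while the FGF genes could not, so the percentage is a background and not a matched one. The filter also keeps a gene with enough counts in a single class, so a member could pass through the class where it was high. Fgf1 and Fgf9 were high in mesothelial-like cells only, so the count of members called is partly set by the filter. With no filter, 5 of the 9 members were called, against 18.4% of 17060 genes. Fgf1 was higher in mesothelial-like cells by a log2 fold change of 5.41 ± 0.26 (SE, adjusted p = 8.89e-27). Fgf9 was higher by 3.74 ± 0.39 on the log2 scale (adjusted p = 6.14e-12). Both directions held in each library taken alone. Fgf2 was lower, with a log2 fold change of -1.41 ± 0.35 (adjusted p = 0.00113). Fgfr1 was lower as well, at -1.73 ± 0.23 (adjusted p = 2.72e-09). Fgf18 was not called, at -0.19 ± 0.26 (adjusted p = 0.642). The 10 fibroblast markers were all detected in mesothelial-like cells, at a summed 14499 and 13359 CPM, and their part in the levels of Fgf2, Fgf18 and Fgfr1 there was not tested.

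The vascular classes held little of any of these ligands. In cluster 0, with the blood endothelial markers, Fgf18 stood at 4.11 and 14.2 CPM. Fgf1 and Fgf2 gave 1 UMI each there, both in library 2, so their levels in fibroblast-like cells were 18.8 times (exact 95% counting interval 3.26 to 755) and 49.5 times (8.77 to 1967) as high. Against fibroblast-like cells, 4 of the 5 members tested were called lower in cluster 0, where 22.8% of all genes were called lower and 42.5% in either direction. Members could pass the filter through another class where they were high, so this count too is partly set by the filter. The log2 fold change of Fgf18 was -2.92 ± 0.43 (adjusted p = 5.38e-08) and that of Fgfr1 was -3.76 ± 0.31 (adjusted p = 7.92e-17); without library 1 these were -2.50 and -3.16, and without library 2 they were -3.75 and -4.60. The fibroblast markers in cluster 0 summed to 481 and 1359 CPM, higher in the library where these members were higher, as were the adipocyte markers, and the part of neither in the levels was tested. Fgf9 was not called in this comparison, at 0.03 ± 0.71 (adjusted p = 0.994). Leaving out barcodes with more than 1% hemoglobin UMIs, a choice made after seeing the data, left 4 members called.

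In pericyte-like cells Fgf1, Fgf2 and Fgf18 had 1, 2 and 3 UMIs, those of Fgf1 and Fgf2 in library 2 only. Their levels in fibroblast-like cells were 13.6 times (2.36 to 546), 17.9 times (4.89 to 149) and 14.4 times (4.86 to 70.4) as high, with exact 95% counting intervals. Again 4 of 5 members were called lower, against 20.6% of all genes called lower and 39.8% in either direction. The same limit of the filter holds for this count. Fgfr1 had a log2 fold change of -3.63 ± 0.32 (adjusted p = 4.60e-15), and Fgf18 had -4.02 ± 0.56 (adjusted p = 2.43e-08), with -4.81 without library 1, -3.29 without library 2 and -5.39 without the hemoglobin-rich barcodes. Fgf9 was not called, at -1.27 ± 1.01 (adjusted p = 0.342) on 2 UMIs.

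**Figure D2:**
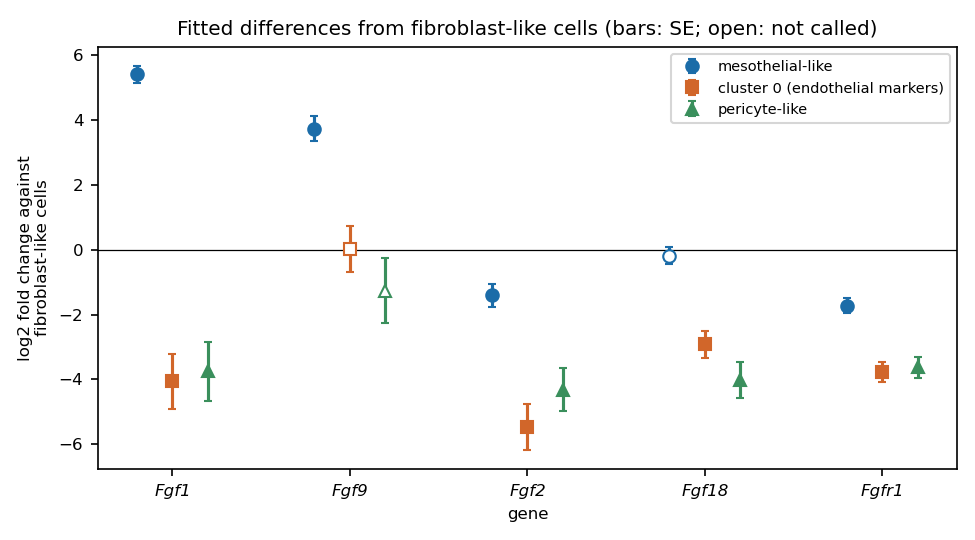
Fitted log2 fold changes against fibroblast-like cells for the 5 members that passed the filter, in mesothelial-like cells (circles), cluster 0 (squares) and pericyte-like cells (triangles); bars are standard errors and open symbols mark differences that were not called. Fgf1 and Fgf9 lie above 0 in mesothelial-like cells, where Fgf18 is near 0, and the vascular classes lie below 0 for Fgf1, Fgf2, Fgf18 and Fgfr1.

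Among fibroblasts, the ligands were unevenly divided, and clusters 1 and 2 lay at opposite ends for Fgf2, Fgf18, Fgf1 and Fgf7. Cluster 1 held 121 of the 171 fibroblast Fgf2 UMIs, at 76.5 and 120 CPM. Fgf2 stood at 11.6 and 10.4 CPM in cluster 2, at 24.7 and 33.3 CPM in cluster 6 and at 16.7 and 51.7 CPM in cluster 8. Cluster 1 lay above the others in each library, and clusters 6 and 8 overlapped. Fgf18 followed a like order, at 78.0 and 116 CPM in cluster 1 and 55.6 and 76.9 CPM in cluster 6. It was lower in cluster 8, at 30.1 and 31.0 CPM, and in cluster 2, at 25.5 and 23.3 CPM; the Poisson intervals of these last clusters overlapped. Across cells thinned to 1000 UMIs, Fgf2 and Fgf18 were each found in 9.12% of cluster 1 cells (27 of 296), against 1.11% and 1.85% of cluster 2 cells.

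Fgf7 ran the other way. It was highest in cluster 2, at 44.0 and 31.1 CPM, and next in cluster 6, at 30.9 and 17.9 CPM. Cluster 8 gave 6.68 and 17.2 CPM and cluster 1 gave 7.36 and 3.47 CPM, on 7 UMIs each. Fgf10, which signals through the same receptor form as Fgf7, had 8 of its 10 UMIs in cluster 2, 4 in each library, and none in clusters 1, 6 and 8. Cluster 2, marked by the chemokine Cxcl14, was thus the cluster with the highest counts of both ligands. These counts are low, and Fgf10 did not pass the filter on low counts.

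RefSeq start-site windows of build GRCm38.p6 were found for 7 of the 9 members, and those of Fgf18 and Fgf7, which were high in opposite fibroblast clusters, are shown with that of Fgf9. Each is the 250 bases before the annotated start, 5′ to 3′ on the gene's strand, with CG dinucleotides in capitals. The Fgf18 window is chr11:33147401-33147650 on the minus strand, the Fgf7 window is chr2:126034408-126034657 on the plus strand, and the Fgf9 window is chr14:58072436-58072685 on the plus strand. None of the 3 windows holds exon bases of any annotated gene, and that of Fgf9 lies inside the annotated gene body.
Fgf18: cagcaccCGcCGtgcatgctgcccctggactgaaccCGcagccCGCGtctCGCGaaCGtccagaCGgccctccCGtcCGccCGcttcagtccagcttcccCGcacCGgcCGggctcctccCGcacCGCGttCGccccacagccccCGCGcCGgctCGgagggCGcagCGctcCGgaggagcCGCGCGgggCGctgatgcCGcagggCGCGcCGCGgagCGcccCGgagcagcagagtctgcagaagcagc
Fgf7: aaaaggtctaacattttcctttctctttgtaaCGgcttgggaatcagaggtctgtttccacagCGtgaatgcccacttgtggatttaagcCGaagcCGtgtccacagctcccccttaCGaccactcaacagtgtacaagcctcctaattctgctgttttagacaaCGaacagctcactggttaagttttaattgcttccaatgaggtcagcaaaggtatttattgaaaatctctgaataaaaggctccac
Fgf9: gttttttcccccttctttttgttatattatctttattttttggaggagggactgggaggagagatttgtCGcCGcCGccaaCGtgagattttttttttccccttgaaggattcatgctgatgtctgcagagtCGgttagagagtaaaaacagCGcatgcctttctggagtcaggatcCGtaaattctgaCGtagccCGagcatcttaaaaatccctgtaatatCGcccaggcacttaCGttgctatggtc
The Fgf18 window held 37 CG dinucleotides, more than 97.8% of the 32841 windows of this length, whose median was 6. Fgf7 had 6 and Fgf9 had 11. On both strands, the GC box GGGCGG, whose letters include a CG, matched once in Fgf18 and not in Fgf7 or Fgf9, and occurs in 32.7% of all windows. CCAAT matched once in Fgf7 and in neither of the others, and occurs in 33.9% of windows. TATAAA matched in none of the 3 and occurs in 12.4%. These matches describe letters only.

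Each fibroblast-like cluster was tested against the mean of the other 3 in a fit over 5337 genes, where the fold change averages the log levels of the other clusters with equal weight. Of the 9 members, 5 passed the filter: Fgf1, Fgf2, Fgf7, Fgf18 and Fgfr1. A member could pass through a single cluster where it was high, so the counts of members called are partly set by the filter. In cluster 1 all 5 were called, against 24.9% of genes tested. Fgf2 was higher by 2.06 ± 0.24 on the log2 scale (adjusted p = 2.91e-08), Fgf18 by 1.31 ± 0.21 (adjusted p = 1.17e-05) and Fgf1 by 2.50 ± 0.47 (adjusted p = 0.00010). Fgfr1 was higher by 0.63 ± 0.12 (adjusted p = 0.000194). Fgf7 was lower, at -2.01 ± 0.57 (adjusted p = 0.00808). The Wald test of DESeq2 kept the calls of Fgf1, Fgf2 and Fgf18, while Fgfr1 (adjusted p = 0.0531) and Fgf7 (adjusted p = 0.117) missed the threshold, with 10.1% of all genes called. Without library 1 the log2 fold changes were 2.19 for Fgf1 and -2.60 for Fgf7, and without library 2 they were 3.32 and -1.51.

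In cluster 2 all 5 members were called, against 15.7% of genes tested, and only Fgf7 was higher. Its log2 fold change was 1.68 ± 0.44 (adjusted p = 0.00685). Fgf2 was lower at -1.98 ± 0.41 (adjusted p = 0.000657), Fgf18 at -1.20 ± 0.31 (adjusted p = 0.00636) and Fgfr1 at -0.55 ± 0.15 (adjusted p = 0.0102). Fgf1 had 1 UMI in cluster 2 and 47 in cluster 1, a ratio of levels of 30.6 (exact 95% counting interval 5.23 to 1235), and was called lower in cluster 2 (adjusted p = 0.00501). Its UMI in cluster 2 came from library 2, and the log2 fold change there was -2.82 without library 1 and -5.84 without library 2. The Wald test of DESeq2 called none of the 5 in cluster 2, against 6.07% of all genes, with adjusted p-values of 0.166 for Fgf1, 0.0516 for Fgf2, 0.21 for Fgf7, 0.207 for Fgf18 and 0.262 for Fgfr1, although each kept its direction and all 5 had an unadjusted p under 0.05. The comparisons of clusters 1 and 2 share the same libraries and each contains the other, so they are not independent.

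In cluster 6 edgeR called none of the 5 members, against 1.71% of genes tested, and in cluster 8 it called none, against 5.51%; the Wald test of DESeq2 called none of the 5 in cluster 8 and gave an adjusted p for only 1 of the 5 in cluster 6, which was not called. In each cluster 1 of the 5 members had an unadjusted p under 0.05, Fgf18, at 0.68 ± 0.26 on the log2 scale in cluster 6 (adjusted p = 0.277) and -0.79 ± 0.33 in cluster 8 (adjusted p = 0.196). Cluster 8, marked by Mfap4 and Myoc, differed in Fgf9, which did not pass the filter. It held 14 of the 20 fibroblast UMIs of Fgf9, at 20.0 and 27.6 CPM, where cluster 1 gave 2.94 and 5.21 CPM and cluster 2 none. Over both libraries the level in cluster 8 was at least 6.48-fold higher than in cluster 2, with a count of 0 taken as 3 UMIs. With no filter on low counts, Fgf9 was called in cluster 8 (log2 fold change 4.16 ± 0.91, adjusted p = 0.000449, with 2.16% of 14290 genes called).

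Fgf1 in fibroblast cluster 1 stood at 33.8 and 41.7 CPM, on 23 and 24 UMIs in 20 and 18 cells. Summed mesothelial markers in those cells were at 162 and 111 CPM in libraries 1 and 2, against 126 and 124 CPM in cluster 1 cells with no Fgf1 UMI. Fgf1 gave 258 and 343 UMIs per 1000 mesothelial marker UMIs in cluster 1, and 162 and 157 in mesothelial-like cells. In fibroblast cluster 2 the ratio was 0 and 9.80, on 82 and 102 marker UMIs. The ratio of Fgf1 to mesothelial markers thus differed between these clusters. It is not given for clusters 6 and 8, with 9 and 8 Fgf1 UMIs. The cluster 1 cells with an Fgf1 UMI held only 16 and 11 marker UMIs. They were also deeper, at medians of 5245.5 and 5035 UMIs against 4668 and 3184 in those without. The source of the Fgf1 UMIs in cluster 1 was not tested.

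Fgfr1, the receptor usually found on mesenchymal cells, had 1387 UMIs, of which 63.4% lay in fibroblast-like cells. Its level was highest in fibroblast cluster 1, at 372 and 311 CPM. Cluster 6 followed at 219 and 259 CPM and cluster 8 at 227 and 217 CPM, and these overlapped. Cluster 2 was the lowest of the fibroblast clusters, at 176 and 179 CPM.

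Macrophage-, dendritic- and monocyte-like cells came next by mean level and overlapped with each other, and the macrophage-like libraries also overlapped with fibroblast cluster 2. Fgfr1 was at 125 and 204 CPM in macrophage-like cells, at 155 and 168 CPM in dendritic-like cells and at 141 and 174 CPM in monocyte-like cells. Mesothelial-like cells were lower, at 80.3 and 97.1 CPM, below all of these myeloid libraries. The pericyte-like class was at 29.5 and 21.7 CPM and cluster 0 at 12.3 and 32.5 CPM, again overlapping. ILC2-, T-, NK- or ILC1-like and B-like cells each had between 1 and 5 Fgfr1 UMIs. Cluster 15, of 59 cells, took the monocyte name by its markers, with S100a8 and S100a9 as leading genes, but was kept apart. It had 2 Fgfr1 UMIs, at 0 and 11.3 CPM, below the monocyte-like class in both libraries. Its count of 0 in library 1, with 14 cells, allows up to 68.4 CPM.

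In cells thinned to 1000 UMIs the order differed for fibroblast cluster 2, whose share of cells with an Fgfr1 UMI was 14.4% (39 of 271) and lay below those of dendritic- and macrophage-like cells, with overlapping binomial intervals. An Fgfr1 UMI was found in 28.4% of fibroblast cluster 1 (84 of 296), 21.3% of all fibroblast-like cells (206 of 965) and 7.82% of mesothelial-like cells (19 of 243). It was found in 17.1% of dendritic-like (13 of 76), 15.7% of macrophage-like (38 of 242) and 12.6% of monocyte-like cells (19 of 151). The background class of T-like cells gave 0.342% (1 of 292). Unthinned, the shares were 53.0% in monocyte-like, 51.6% in fibroblast-like, 45.5% in dendritic-like, 39.2% in mesothelial-like, 29.9% in macrophage-like and 1.61% in T-like cells.

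Fibroblast RNA in the myeloid classes was measured beside these levels. The 10 fibroblast markers summed to 188 and 628 CPM in macrophage-like cells and to 143 and 168 CPM in dendritic-like cells. Fgfr1 gave 667 and 325 UMIs per 1000 fibroblast marker UMIs in macrophage-like cells and 1091 and 1000 in dendritic-like cells, against 12.6 and 12.7 in fibroblast-like cells. In monocyte-like cells the fibroblast markers summed to 3113 and 6061 CPM and the ratio was 45.3 and 28.7. The mean Fgfr1 level of the monocyte-like class was 158 CPM, and 151 CPM at clustering resolution 2.0, where Fgf7 and Fgf18 were at 0 in this class instead of 4.75 and 8.05 CPM. With a stricter cell filter the Fgfr1 level was 121 CPM in monocyte-like and 171 CPM in dendritic-like cells, and with no gene kept out of the clustering it was 112 and 162 CPM.

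**Figure D3:**
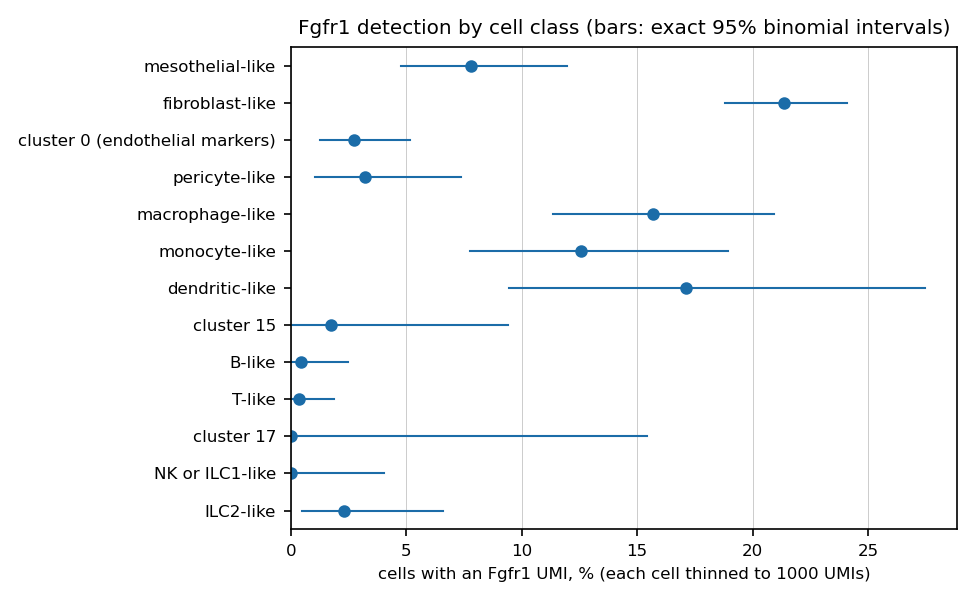
Share of cells with at least 1 Fgfr1 UMI in each class, in percent, after each cell was thinned to 1000 UMIs; points pool both libraries and bars are exact 95% binomial intervals. Fibroblast-like cells lie at 21.3%, the macrophage-, monocyte- and dendritic-like classes between 12.6% and 17.1%, and T-like cells at 0.342%.

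The other receptors were scarcely detected. Fgfr2, the receptor of Fgf7 and Fgf10, had 8 UMIs in all, 5 of them in fibroblast-like and 2 in mesothelial-like cells. Fgfr3 had 40 UMIs and was spread differently from Fgfr1: cluster 0 held 14 of them, at 16.5 and 12.2 CPM, and mesothelial-like cells held 12, all in library 2 (0 and 11.9 CPM). Pericyte-like cells gave 2.95 and 16.3 CPM and fibroblast-like cells 1.15 and 1.83 CPM. Neither receptor passed the filter. With no filter, Fgfr3 was called higher in cluster 0 than in fibroblast-like cells (log2 fold change 2.83 ± 0.84, adjusted p = 0.00481, with 22.3% of 17060 genes called), and it was not called in mesothelial-like cells (adjusted p = 0.151, with 18.4% of genes called).

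The remaining family was looked up from lists of pathway genes. Of 16 other ligands, 9 had at least 1 UMI and none passed the filter; Fgf11 led with 32 UMIs and Fgf16 followed with 25. Fgf16, a relative of Fgf9, was at 20.1 and 5.95 CPM in mesothelial-like cells and 2.31 and 3.66 CPM in fibroblast-like cells. Among other receptors and co-receptors, Fgfrl1, a receptor without a kinase domain, had 52 UMIs and Fgfr4 had 2, and the klotho co-receptors Kl and Klb had none. Of the carrier proteins, Fgfbp3 had 32 UMIs and Fgfbp1 had 2. None of these was tested.

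Heparan sulfate genes differed between the mesothelial-like and fibroblast-like classes without a common direction. Of 12 core protein genes 8 were tested; 3 were higher in mesothelial-like cells, 4 were lower and 1 was not called, with a median log2 fold change of -0.95 against 0.01 over all genes, of which 32.7% were called. The syndecan Sdc4 was higher, at 620 and 854 CPM against 274 and 384 CPM (log2 fold change 0.99 ± 0.20, adjusted p = 4.36e-05), while Sdc2 was lower at -1.40 ± 0.17 (adjusted p = 3.31e-10) and the perlecan gene Hspg2 was lower at -1.51 ± 0.24 (adjusted p = 4.22e-07). The glypican gene Gpc3 was not called, at 232 and 285 CPM in mesothelial-like against 281 and 360 CPM in fibroblast-like cells. Of 19 genes for heparan sulfate synthesis and editing 10 were tested, with 2 higher, 2 lower and 6 not called, a share near that of all genes. Ext2 was among those not called, at 64.7 and 89.2 CPM in mesothelial-like against 88.2 and 79.2 CPM in fibroblast-like cells. In cluster 0, 8 of the same 10 enzyme genes were lower and none was higher, with a median of -1.41 against -0.05 over all genes, of which 22.8% were lower. In pericyte-like cells 5 were lower, none was higher and 5 were not called, with a median of -0.99 against -0.03 over all genes, of which 20.6% were lower.

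Within the fibroblasts, Sulf1, Sulf2 and the chain synthesis gene Ext1 were called higher in cluster 1 and lower in cluster 2. Cluster 1 had 4 of 10 tested enzymes higher, none lower and 6 not called, where 24.9% of all genes were called in either direction, with a median log2 fold change of 0.55 against 0.02 over all genes. Cluster 2 had 4 lower, none higher and 6 not called, where 15.7% of all genes were called, with a median of -0.79 against 0.00 over all genes. Sulf1 and Sulf2 encode sulfatases that remove 6-O-sulfate from heparan sulfate outside the cell. Sulf2 was not particular to cluster 1: in cluster 8, Sulf2 and Hs3st1 were called higher and 8 of the 10 enzymes were not called. There 5.51% of all genes were called. In cluster 6 none of the 10 was called, against 1.71% of all genes. Sulf2 stood at 253 and 268 CPM in cluster 1 and at 62.5 and 49.2 CPM in cluster 2. Its log2 fold change was 1.07 ± 0.14 in cluster 1 (adjusted p = 1.88e-07) and -1.78 ± 0.20 in cluster 2 (adjusted p = 1.76e-08). Sulf1 was at 188 and 219 CPM in cluster 1 and at 83.4 and 38.9 CPM in cluster 2 (log2 fold change 1.26 ± 0.17 and -0.93 ± 0.23, adjusted p = 3.41e-07 and 0.00466). The core protein genes did not share this direction. Of 5 tested in cluster 1, Gpc6 was higher, Gpc3, Hspg2 and Sdc4 were lower and 1 was not called. Their median log2 fold change was -0.50 against 0.02 over all genes. In cluster 2 Sdc4 was higher and 4 were not called. In cluster 8 Sdc2 was lower and 4 were not called, and in cluster 6 none was called.

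Feedback and target genes of FGF signalling moved in both directions. In mesothelial-like cells 5 of 13 tested were higher than in fibroblast-like cells and 4 were lower, with a median log2 fold change of -0.48 against 0.01 over all genes, of which 32.7% were called. Dusp5, a phosphatase of the MAP kinase ERK, was at 156 and 151 CPM against 32.3 and 40.8 CPM (log2 fold change 1.88 ± 0.23, adjusted p = 4.41e-10). Flrt2, a membrane protein of a family that can bind FGF receptors, was higher by 1.60 ± 0.16 (adjusted p = 4.20e-13), and the inhibitors Spry2 (-1.40 ± 0.18, adjusted p = 3.39e-09) and Spred1 (-2.40 ± 0.28, adjusted p = 5.98e-11) were lower. In pericyte-like cells 5 of the 13 were higher (Dusp5, Dusp6, Spred2, Spry1 and Spry4) and 4 were lower (Flrt2, Flrt3, Spred1 and Spry2), with a median of 0.77 against -0.03 over all genes, of which 39.8% were called. The same 5 genes were called higher in cluster 0 than in fibroblast-like cells, and 5 others were lower there. The median in cluster 0 was -0.35 against -0.05 over all genes, of which 42.5% were called. Dusp6 and Spry1, named after their values were seen, were highest in pericyte-like cells among all classes: Dusp6 was at 138 and 190 CPM there and at 6.92 and 14.0 CPM in fibroblast-like cells, and Spry1 at 135 and 217 CPM there and at 25.9 and 29.2 CPM in fibroblast-like cells. The libraries of cluster 0 overlapped those of pericyte-like cells for Spry1. Other growth factor receptors also induce these genes.

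In the fibroblasts, Flrt2 was at 134 and 151 CPM in cluster 1, 52.6 and 59.0 CPM in cluster 6, 83.5 and 89.7 CPM in cluster 8 and 23.2 and 15.5 CPM in cluster 2, with the differences of clusters 1 and 2 called (log2 fold change 1.57 ± 0.19 and -2.13 ± 0.30, adjusted p = 5.13e-08 and 1.96e-06). Spry1 lay the other way, at 7.36 and 3.47 CPM in cluster 1 and 62.5 and 67.4 CPM in cluster 2 (-2.63 ± 0.47 and 2.09 ± 0.33, adjusted p = 4.93e-05 and 1.52e-05). The related inhibitor Spry2 did not follow Spry1: it was called higher in cluster 1 and was not called in cluster 2. It stood at 172 and 281 CPM in cluster 1 and at 78.7 and 199 CPM in cluster 2. Of the 8 tested genes of this list, 2 were higher (Flrt2 and Spry2) and 2 lower (Spred1 and Spry1) in cluster 1. In cluster 2, 1 was higher (Spry1) and 2 were lower (Flrt2 and Flrt3). Over all genes, 24.9% were called in cluster 1 and 15.7% in cluster 2.

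The genes whose log2(CPM + 10) followed each member most closely across the 13 classes were taken from 10196 genes. For Fgf1 they were Spock2 (Pearson r = 0.992), Arhgap44 and Csdc2, for Fgf9 Ninl (0.989), Arxes2 and Cd109, and for Fgf2 Opcml (0.992) and Ndrg4. For Fgf18 they were Gpr27 (0.990), Gxylt2 and Mirg, for Fgf7 Pi15 (0.994), Scg3 and Sfrp4, and for Fgfr1 Sh3pxd2b (0.936), Mt1 and Mt2. The classes share the same libraries and many hold few or no UMIs of each ligand, so r is a description of 13 points.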

How the data were processed

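Single-cell RNA-seq of whole mesentery was analysed in 2 mice, 1 library each. Per the file headers, the authors deposited UMI counts for each gene in each barcode, as whole numbers without scaling. The submitters' processing notes name Cell Ranger and the build mm10; a version, the depth scaling of libraries and the use of strand in counting are not given in the sources used here. Library came from the barcode suffix, matched by number to the mouse.

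Barcodes with fewer than 200 genes or more than 10% mitochondrial UMIs were dropped (61 in all), and Scrublet in scanpy 1.11.5 removed 39 doublets from library 1 and 4, or 0.241%, from library 2, so doublets of library 2 were hardly removed. Cells were clustered on 2000 variable genes (30 components, 15 neighbours, Leiden resolution 1.0, seed 0), with 98 FGF-related genes kept out. A cluster took a class name where at least 3 of that class's markers passed 2-fold in at least 10% of its cells, and 30 cells stayed unnamed. Clusters 15 and 17 kept their numbers, because listed markers of another class outnumbered their own among the 10 leading genes and their class had another cluster. Cluster 0 was the only cluster of its class and was fitted as the blood endothelial-like class. It is called by its number here because hemoglobin genes led it. In cluster 17, T-like by its markers, the leading genes included the ILC2 marker Il1rl1. They also included Tnfrsf4, Ctla4 and Foxp3, which do not go against a T-like name. Counts were summed per library and class and tested by edgeR 4.0.16 with its quasi-likelihood test (TMM, filterByExpr, library as a block because the same mice gave every class, Benjamini-Hochberg over all genes tested, threshold 0.05). The p-values measure the scatter of classes between the 2 mice that is left after the block. For each gene, all classes of a fit shared a single estimate of this spread, because 2 libraries are too few for a pair of classes alone. Levels are CPM per library with exact 95% Poisson intervals, and shares have exact 95% binomial intervals. DESeq2 1.42.0 and other filters, scalings and resolutions were alternatives. The test was run on simulated counts too, where unchanged genes had the same mean share in every class and all genes had the same spread. That setting is simpler than the real classes, so it does not show how the test performs on them. The naming rule covered every member, of each pathway list the 4 genes with most UMIs, the 3 genes closest in pattern to each member with at least 50 UMIs, and the leading genes of each fibroblast cluster. Fgf5 and Fgf13, with 4 and 5 UMIs, were among the 4 of their list and are not described further. Genes outside this rule are named too, among them Spry1, Dusp6, Spry4, Spred2 and Flrt3. A pathway list and a gene that this rule names are not reported here. Members and lists were chosen with earlier results of these data known. Start-site windows came from RefSeq (GRCm38.p6) and were checked against the reference annotation of that assembly.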

Additional observations from a re-analysis of the deposited data

How the results depend on the processing

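No alternative reversed a called value. With DESeq2's Wald test the genes called in fibroblast clusters 1, 2, 6 and 8 numbered 539, 324, 37 and 130, against 1327, 836, 91 and 294 in edgeR, and 7 of the 10 calls of members in clusters 1 and 2 were lost; the cause was not tested. With no replicate block for library, cluster 6 had 38 genes called, and no call of a member changed; the block pairs classes from the same mouse. DESeq2's size factors, no filter on low counts, resolution 0.5 and 2.0, a stricter cell filter, no doublet removal, no gene kept out and removal of hemoglobin-rich barcodes left every call of a member that they tested as it was; the settings that redraw clusters were run for the 3 comparisons between classes only. A single library gives fold changes with no test, and called members kept their direction in each. Depth limits Fgf10, Fgfr2 and Fgfr3, with 10, 8 and 40 UMIs, and a class of few cells such as cluster 17 allows up to 162 CPM at a count of 0 in library 1.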
